A study of Mus musculus with 2 samples.

Results

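Hcn2, Hcn3, Hcn4 and Pex5l were examined in RNA purified with tagged ribosomes from the dentate gyrus of adult mice. The first 3 encode pore subunits of HCN channels, and Pex5l encodes Trip8b, an auxiliary protein of these channels. The genes were chosen by symbol, and all 4 have a line in both tables of 32531 gene symbols. Only these 3 genes of the HCN family were analysed here, so every share given is a share among these 3 HCN genes and not of the whole family.

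The study has 1 group of 2 libraries, replicate 1 and replicate 2. Both are immunopurified (IP) samples from untreated mice of the Lypd1-TRAP line OI82, which carries Lypd1-EGFP/Rpl10a, a ribosomal protein tagged with EGFP. In lines of this kind the regulatory sequence of the gene in the name drives the tagged protein, so the marked cells need not be of 1 type. Dissected tissue was homogenised and tagged polysomes were captured with anti-EGFP antibodies, so the RNA is that bound to ribosomes in the cells the line marks, together with any RNA carried along from other cells. No input or untagged library was used here, the labels give neither the number of animals nor whether the replicates are separate animals, and the spread between the libraries may be partly technical. In such bulk samples, fewer cells of a type and less RNA per cell cannot be told apart.

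HCN channels are cation channels that open when the membrane is hyperpolarised and carry the h-current, which sets the resting potential, input resistance and summation of dendritic inputs in many neurons. Cyclic AMP binds a domain in their cytoplasmic tail and makes them open more readily. Trip8b binds the channel tail, interferes with the action of cyclic AMP and directs channels to or from the cell surface, depending on which of its splice forms is made. A tetratricopeptide domain of Trip8b, related to that of the peroxisomal import receptor Pex5, holds the end of the channel tail.

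The last coding bases of the HCN genes are shown because they encode the end of the tail that the tetratricopeptide domain binds. Each line gives the 30 bases before the stop codon, 5′ to 3′, from GENCODE M21 transcripts on GRCm38 (mm10), with the last 3 codons in capitals. They lie at chr10:79735508-79735537 on the plus strand for Hcn2, chr9:58860731-58860760 on the plus strand for Hcn4 and chr3:89147602-89147631 on the minus strand for Hcn3.
Hcn2: tctgcgcgctcgcgcctctctTCCAACTTG
Hcn4: ccagtacgctccaaactgccgTCTAATTTA
Hcn3: cccagaggtccccaaatttctGCCAACATG

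The last 3 codons of Hcn2 and Hcn4 shared 6 of 9 bases, and all 3 were synonymous by the standard genetic code. Those of Hcn3 shared 7 of 9 bases with Hcn2, but only 1 of the 3 codons was the same or synonymous. The same 1 of 3 was found between Hcn3 and Hcn4. Over all 30 bases, 6 of 10 codons were the same or synonymous between Hcn2 and Hcn4, and 2 of 10 between Hcn3 and either of the others. The 3 genes therefore differ in this stretch more between Hcn3 and the others than between Hcn2 and Hcn4.

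The pore is shown for contrast, with the codons of the glycine-tyrosine-glycine signature of the selectivity filter in capitals. The stretches of 45 bases lie at chr10:79728941-79728985 (plus strand), chr9:58855573-58855617 (plus strand) and chr3:89150988-89151032 (minus strand).
Hcn2: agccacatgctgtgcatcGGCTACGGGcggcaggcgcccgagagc
Hcn4: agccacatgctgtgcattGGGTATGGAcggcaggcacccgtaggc
Hcn3: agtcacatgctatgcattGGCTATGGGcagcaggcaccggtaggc

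In this window 13 of 15 codons were the same or synonymous between Hcn2 and Hcn4, 12 of 15 between Hcn2 and Hcn3 and 14 of 15 between Hcn3 and Hcn4. In the pore the pairs with Hcn3 lie on either side of the pair of Hcn2 and Hcn4, whereas at the end of the tail both lie below it.

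Pex5l was the abundant gene of the set and the HCN genes were scarce, and among these Hcn2 led Hcn3 and Hcn3 led Hcn4 in both libraries. Each level is a CPM, the count scaled to 1000000 gene counts per library. Replicate 1 held 31309643 and replicate 2 held 32711412 such counts, so that 1 count is a CPM of 0.0319 or 0.0306. Detection here means that both libraries reach a CPM of 1. By that rule 2 of the 4 genes, Pex5l and Hcn2, were detected, against 38.1% of all symbols. All 4 had at least 10 counts in both libraries, which 43.2% of all symbols had.

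**Figure D1:**
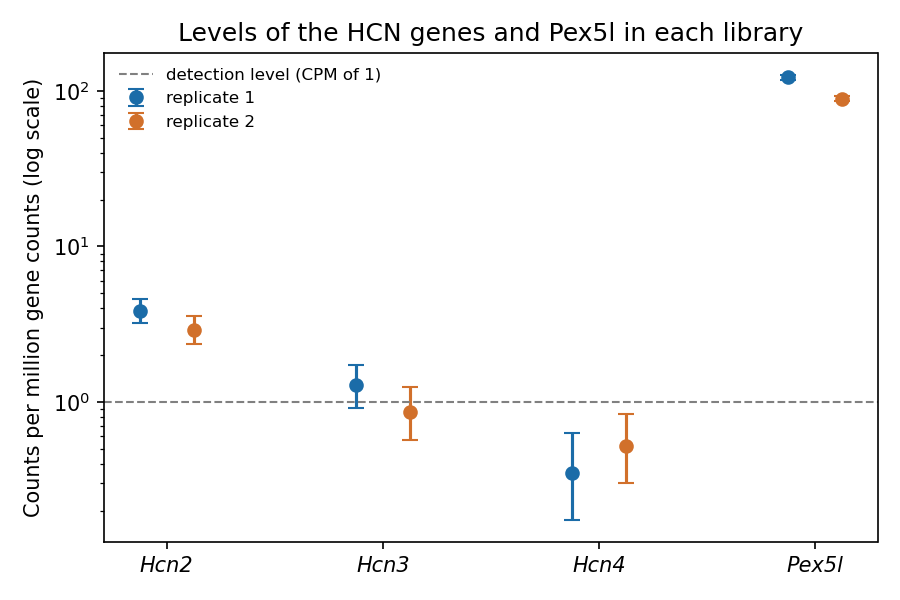
CPM (log axis) of Hcn2, Hcn3, Hcn4 and Pex5l in each library, with exact 95% Poisson intervals that cover counting error only; the dashed line is a CPM of 1. Pex5l stands at 122 and 89.1 CPM, Hcn2 lies above the line in both libraries, Hcn3 crosses it and Hcn4 lies below it.

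Hcn2 encodes a subunit found widely in brain that responds strongly to cyclic AMP. Replicate 1 held 121 counts of it and replicate 2 held 95, giving 3.86 CPM (exact 95% Poisson interval 3.21 to 4.62) and 2.90 CPM (2.35 to 3.55). The 2 intervals overlap, and the mean was 3.38 ± 0.679 CPM (SD, n = 2). The gene lies on chromosome 10 (79716634 to 79736108, plus strand) and its longest transcript has a GC content of 65.4%, a value that 0.510% of 21951 protein-coding genes exceed. Hcn3 and Hcn4 are GC-rich too, both at 58.0% (8.74% and 8.91% of genes are higher), while Pex5l is at 47.2% (57.3% higher). The effect of base composition on the counts was not tested.

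Hcn3 encodes a subunit that responds little to cyclic AMP. It had 40 and 28 counts, or 1.28 CPM (0.913 to 1.74) in replicate 1 and 0.856 CPM (0.569 to 1.24) in replicate 2, with a mean of 1.07 ± 0.298 CPM (SD, n = 2). Both intervals include a CPM of 1, so whether it passes the detection rule is within counting error. It lies on chromosome 3 (89146074 to 89160196, minus strand), and 711 of its 4154 exonic bases overlap exons of Pklr, a pyruvate kinase gene on the other strand. Pklr had 6 and 2 counts. How reads in the shared stretch were assigned is not given in the sources used here.

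Hcn4 encodes the slowly opening subunit best known as the main pacemaker channel of the heart, and in the brain it is prominent in the thalamus. Replicate 1 held 11 counts of it and replicate 2 held 17, giving 0.351 CPM (0.175 to 0.629) and 0.520 CPM (0.303 to 0.832). Both counts are above the 3 that a count of 0 would allow (0.0958 and 0.0917 CPM). The mean was 0.436 ± 0.119 CPM (SD, n = 2). Hcn4 lies on chromosome 9 (58823412 to 58863175, plus strand), and none of its 6069 distinct 50-base words occurs in another gene's GENCODE M21 transcripts. The same was true of the 3190 words of Hcn2.

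Pex5l reached 3820 counts in the first library and 2914 in the second, giving 122 CPM (118 to 126) and 89.1 CPM (85.9 to 92.4). These intervals do not overlap, so the libraries differ beyond counting error. The mean was 106 ± 23.3 CPM (SD, n = 2). Pex5l lies on chromosome 3 (32949408 to 33143247, minus strand). The antisense gene 4930419G24Rik shares 24 exonic bases with it and had 7 and 0 counts, and a second antisense gene, not analysed here, shares 340.

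The Pex5l count sums splice forms that differ at their start. GENCODE M21 lists 12 transcripts, 9 of them coding, with 4 different coding starts. The first 30 coding bases from 3 of these starts are shown because the variable start is the part of Trip8b on which its effect on channel trafficking depends, with the start codon in capitals. They lie on the minus strand at chromosome 3 positions 33142869 for Pex5l-206, 33082068 for Pex5l-201 and 33081993 for Pex5l-204. The stretches of Pex5l-206 and Pex5l-204 cross an intron.
Pex5l-206: ATGtaccagggacacatgcagctggtgaat
Pex5l-201: ATGtctgacagtgaaatggatggaaggact
Pex5l-204: ATGcagatgagctacttgaaaagtaaagaa

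A count per gene gives no value for any of these forms. It also leaves the length of the message uncertain. All annotated exons of Pex5l add up to 8846 bases, while its longest transcript has 4206.

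Levels of different genes are compared per kilobase of exon, using the union of annotated exons. On this scale Pex5l was at 13.8 CPM per kilobase in replicate 1 and 10.1 in replicate 2. Hcn2 was at 1.21 and 0.909, Hcn3 at 0.308 and 0.206, and Hcn4 at 0.0574 and 0.0849 CPM per kilobase. The ranges of the 4 genes over the libraries did not overlap, and the order was the same in both.

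Pex5l was 11.4 times Hcn2 per kilobase in replicate 1 (95% counting interval 9.51 to 13.8) and 11.1 times in replicate 2 (9.03 to 13.7). With the longest transcript in place of all exons the ratios were 24.0 and 23.3. Hcn2 was 3.93 times Hcn3 (2.73 to 5.77) in replicate 1 and 4.41 times (2.87 to 6.99) in replicate 2. Hcn3 was 5.36 times Hcn4 (2.70 to 11.6) in replicate 1 and 2.43 times (1.28 to 4.72) in replicate 2. No interval includes 1, so each step in the order is larger than counting error in both libraries. The step from Hcn3 to Hcn4 is the least certain, since it rests on 11 and 17 counts of Hcn4.

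Of the summed level per kilobase of the 3 HCN genes, Hcn2 made up 76.8% in replicate 1 and 75.7% in replicate 2. Hcn3 made up 19.5% and 17.2%, and Hcn4 3.65% and 7.08%. As shares of counts with no length correction, Hcn2 held 70.3% of 172 counts (exact binomial interval 62.9 to 77.1%) and 67.9% of 140 (59.4 to 75.5%). The intervals for Hcn4, 3.24 to 11.2% and 7.24 to 18.7%, overlap between the libraries. No difference in the make-up of these messages was detectable at this depth. Pex5l was 8.76 and 8.39 times the 3 HCN genes together per kilobase of exon, and 18.3 and 17.5 times per kilobase of the longest transcript.

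A list of 147 genes was chosen by ion channel symbol, and 83 of them were detected, against 38.1% of all symbols. It includes subunits of potassium, sodium, calcium, cyclic nucleotide-gated, HCN and TRP channels. Auxiliary subunits are included for potassium channels but not for sodium and calcium channels. It also takes in genes that encode no channel subunit, such as Kcnq1ot1, Kcnmb4os1, Kcnmb4os2, Kcnrg and Trpc4ap. Of these, Kcnmb4os2, Kcnrg and Trpc4ap stood above Hcn2, so the ranks are approximate. Per kilobase of exon, 66 of the other 146 stood above Hcn2, 90 above Hcn3 and 105 above Hcn4. Only 18 of the 147 stood above Pex5l, or 13 by the longest transcript. Over all 23155 symbols with an exon length, 42.6% were higher than Hcn2, 53.3% than Hcn3, 60.8% than Hcn4 and 14.5% than Pex5l. A gene at 0 counts had 70.2% of these symbols above it. In the channel list 22 genes had 0 counts in both libraries, and all 66 genes above Hcn2 were among the 83 detected. Hcn2 is therefore near the middle of the whole list but in the lower part of its detected genes. Hcn3 and Hcn4 stand lower still, and Pex5l is at the level of well represented channel subunits.

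**Figure D2:**
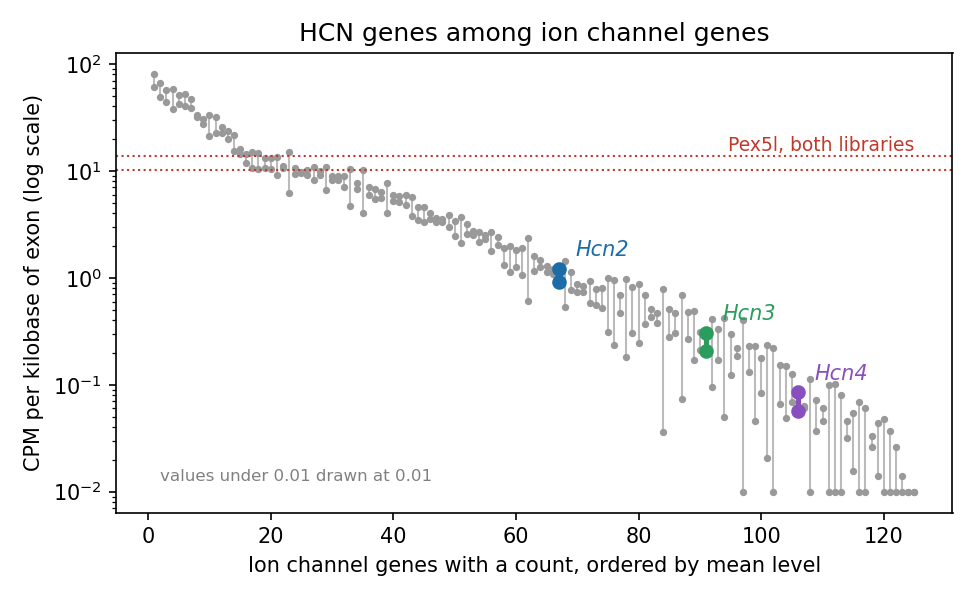
Level per kilobase of exon (log axis) of each gene of the ion channel symbol list with a count, ordered by its mean. The points joined by a line are the 2 libraries. Hcn2, Hcn3 and Hcn4 are coloured, and the dotted lines mark Pex5l at 13.8 and 10.1 CPM per kilobase, which 18 channel genes exceed on average.

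The channel genes nearest to each member in level were found by Euclidean distance in log2(CPM per kilobase + 1) over the 2 libraries, which reflects level and little else. Nearest to Hcn2 were Cacna1i, a T-type calcium channel gene (1.13 and 0.769 CPM per kilobase), Kcnu1 and Kcna3, at distances of 0.12, 0.23 and 0.27. Hcn3 was nearest to Trpv2 (0.313 and 0.211), Trpv6 and Trpm4, and Hcn4 to Kcnmb3 (0.0372 and 0.0713), Trpv4 and Kcne4. Nearest to Pex5l were Kcnab1 (13.3 and 10.6), which encodes a beta subunit of Kv1 channels, Kcnc1 (13.2 and 10.5) and Kcna2 (13.5 and 9.08). Kcna2 encodes a Kv1 pore subunit and Kcnc1 a fast delayed rectifier.

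The libraries were also compared with each other. Ratios of replicate 2 to replicate 1 rest on library totals scaled by TMM, with 2 counts added as a prior and exact 95% intervals for counting error. They compare these libraries and not conditions. The log2 ratio was -0.31 for Hcn2 (-0.72 to 0.08), -0.46 for Hcn3 (-1.24 to 0.25), 0.57 for Hcn4 (-0.52 to 1.90) and -0.36 for Pex5l (-0.43 to -0.29). Only the interval of Pex5l leaves out 0. Hcn2, Hcn3 and Pex5l had a mean of 1 CPM or more and entered the comparison with 13089 genes in all. None of the 3 passed 1.5-fold, where 26.9% of all did, 12.6% higher and 14.3% lower in replicate 2. All 3 lay below 0, as did 50.8% of those genes, whose median was -0.01.

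Of the genes compared, 46.4% had a larger difference between the libraries than Pex5l. Most of them have fewer counts than Pex5l, which ranks 2087 by mean CPM, and counting error widens their ratios more. The share therefore does not show whether its excess over counting error is ordinary for genes of its level. The ion channel genes as a whole had a median log2 ratio of -0.20, with 67 of 93 below 0, 18 past 1.5-fold lower and 6 past 1.5-fold higher. Lypd1, the gene that names the line, was at 265 and 194 CPM, a log2 ratio of -0.35 (-0.40 to -0.31).

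**Figure D3:**
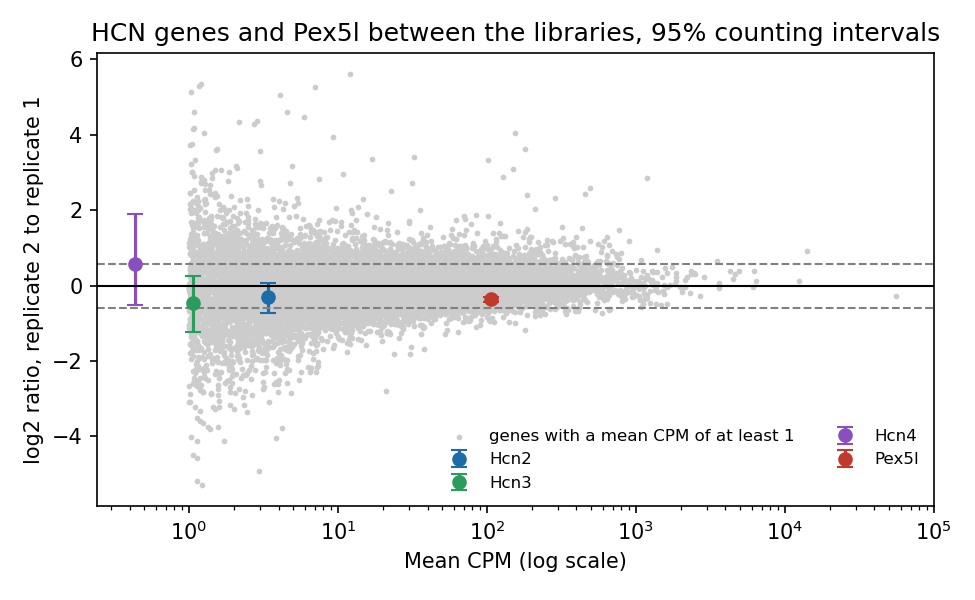
Log2 ratio of replicate 2 to replicate 1 against mean CPM (log axis) for genes averaging 1 CPM or more (grey) and for Hcn2, Hcn3, Hcn4 and Pex5l with 95% counting intervals; dashed lines mark 1.5-fold. All 4 points lie inside the dashed lines, and the intervals of the 3 HCN genes include 0.

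Known partners of HCN channels were uneven. Of 12 genes in this list 8 were detected, against 38.1% of all symbols, and 3 had 0 counts in both libraries. The most abundant per kilobase were Nedd4l, a ubiquitin ligase that acts on many membrane proteins (74.4 and 56.1 CPM per kilobase), Grasp, a synaptic scaffold also called tamalin (37.4 and 73.2), Vapa (35.1 and 50.2) and the scaffold Magi2 (17.0 and 17.0). Vapa and its relative Vapb (13.9 and 10.5) encode membrane proteins of the endoplasmic reticulum that bind HCN channels. Kctd3, whose product binds Hcn3, was at 78.3 and 79.3 CPM, or 9.63 and 9.76 CPM per kilobase. That is far above Hcn3 itself.

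The regulators at the other extreme were Kcne2, a small membrane subunit that can join HCN channels, Cav3, the muscle caveolin, and Lrmp, whose product alters the cyclic AMP response of Hcn4. All 3 had 0 counts, for which the limit was set at 3 counts per library (0.0958 and 0.0917 CPM), while the exact Poisson interval used for the other levels reaches 0.118 and 0.113 CPM. Mrvi1, a relative of Lrmp, had 41 and 7 counts, or 1.31 and 0.214 CPM. Of the 8 partners averaging 1 CPM or more, 2 were past 1.5-fold higher in replicate 2 (Grasp at 1.06 and Vapa at 0.61). None was past 1.5-fold lower, and the list median was 0.10. Of all genes compared, 12.6% were past 1.5-fold higher and 14.3% past 1.5-fold lower.

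Trip8b was first described as a partner of the small GTPase Rab8b and also binds clathrin and its adaptor AP-2, through which channels leave the surface. All 10 genes of this group were detected, against 38.1% of all symbols, with a median of 22.6 CPM per kilobase. Rab8b was at 24.7 and 24.3 CPM per kilobase and its relative Rab8a at 1.20 and 1.59. The clathrin light chain gene Clta (98.9 and 161) led the group, followed by the AP-2 subunits Ap2m1 (48.1 and 43.2) and Ap2a2 (35.0 and 37.5) and the clathrin heavy chain gene Cltc (19.4 and 33.8). Clta and Cltc were past 1.5-fold higher in replicate 2, with log2 ratios of 0.80 and 0.89. These are 2 of 10 genes, where 12.6% of all genes compared were past 1.5-fold higher. The list median was 0.26, and 1 of 10 lay below 0, where 50.8% of all genes did.

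Pex5, the peroxisomal relative of Pex5l, was the scarcer of the pair. Its levels were 6.83 CPM in the first library and 12.8 CPM in the second. Per kilobase of exon Pex5l was 7.96 times Pex5 (6.93 to 9.17) in replicate 1 and 3.10 times (2.80 to 3.44) in replicate 2, and with the longest transcripts 13.4 and 5.21 times. The intervals of the libraries do not overlap. Pex5 was higher in replicate 2 (log2 ratio 0.99, 0.76 to 1.24), while Pex5l was lower.

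The 14 peroxins analysed here, proteins of peroxisome assembly and import, were all detected, against 38.1% of all symbols. Their median was 2.85 CPM per kilobase. Pex19 (14.3 and 13.4), Pex3 (11.8 and 8.47), Pex13 (9.37 and 9.90) and Pex6 (4.82 and 4.70) were the highest of these, and on the union of exons Pex5l, at 13.8 and 10.1, is near the first 3. Pex5 and 1 other peroxin, Pex2 (0.82), were past 1.5-fold higher in replicate 2, and Pex11a (-1.25), Pex11g (-1.08) and Pex14 (-0.95) were past 1.5-fold lower. The list median was -0.11. Over all genes compared, 12.6% were past 1.5-fold higher and 14.3% past 1.5-fold lower.

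**Figure D4:**
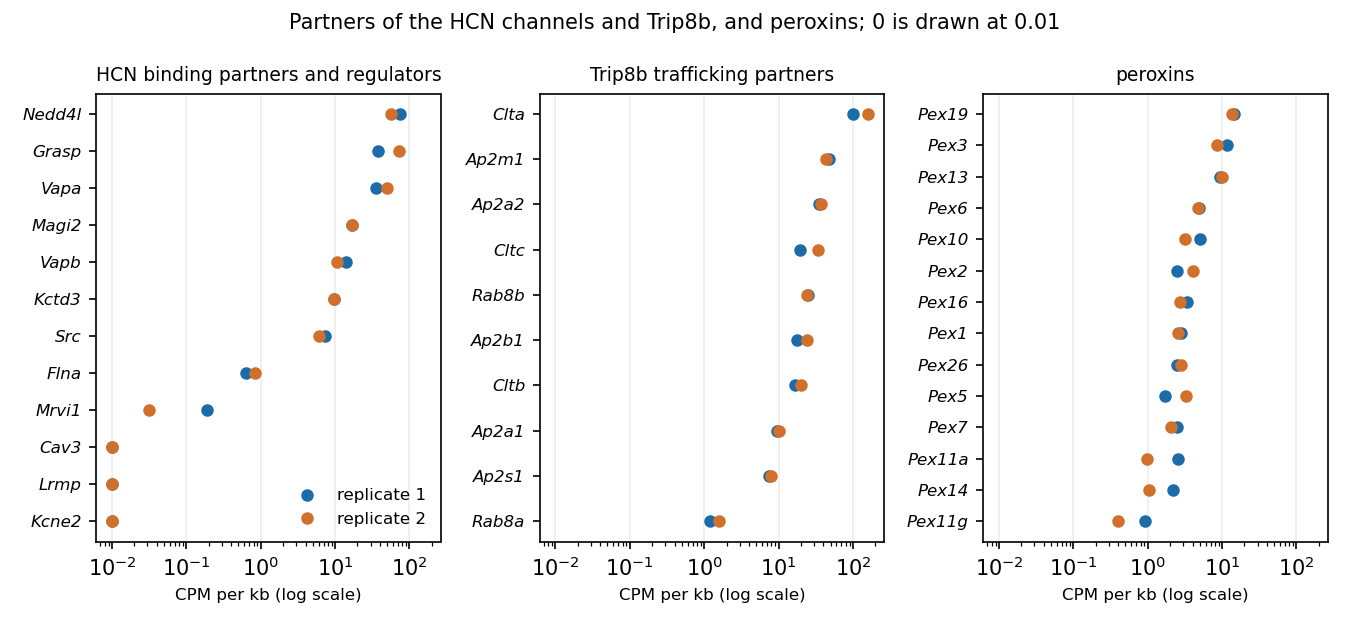
Level per kilobase of exon (log axis) in replicate 1 and replicate 2 of HCN binding partners and regulators, Trip8b trafficking partners and peroxins; genes at 0 are drawn at 0.01. Every trafficking partner and peroxin has a value in both libraries, while Kcne2, Cav3 and Lrmp stand at 0.

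HCN channels belong to a superfamily of channels with a cyclic nucleotide-binding or related domain, and its other branches were compared. None of the 6 cyclic nucleotide-gated channel genes, known from photoreceptors and olfactory neurons, was detected, against 38.1% of all symbols. Cnga1, Cnga2 and Cngb3 had 0 counts in both libraries. Cngb1 (0.154 and 0.0654 CPM per kilobase), Cnga4 (0.228 and 0.0459) and Cnga3 (0 and 0.0695) were the rest, each below Hcn3 in the same library.

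Of the 8 Kcnh genes, which encode potassium channels of the EAG, ERG and ELK types, 5 were detected, against 38.1% of all symbols. Kcnh1 was the highest at 10.8 and 6.62 CPM per kilobase, followed by Kcnh5 (3.59 and 3.32), Kcnh3 (3.38 and 2.46) and Kcnh7 (1.47 and 1.27). Each of these stood above Hcn2 in both libraries. All 6 Kcnh genes compared between the libraries lay below 0, with a list median of -0.49. Of these, 3 were past 1.5-fold lower (Kcnh1 at -0.61, Kcnh4 at -1.31 and Kcnh2 at -2.24). Of all genes compared, 50.8% lay below 0 and 14.3% were past 1.5-fold lower. In the ion channel list 67 of 93 lay below 0 and 18 were past 1.5-fold lower.

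Adenylyl cyclases make the cyclic AMP that HCN channels bind. Of 10 genes 8 were detected, against 38.1% of all symbols. Adcy1, a calcium-stimulated neuronal form, was at 115 and 99.9 CPM per kilobase, above Adcy9 (26.1 and 22.7), Adcy2 (19.8 and 20.5) and Adcy5 (4.15 and 3.03). The list median between the libraries was -0.27, with Adcy10 (0.71) past 1.5-fold higher and Adcy3 (-0.60) and Adcy7 (-4.03) past 1.5-fold lower. The shares of all genes compared were 12.6% higher and 14.3% lower.

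Markers of other cells were measured because HCN genes are also expressed outside granule cells. The share to set beside each count of detected markers is 38.1% of all symbols. All 8 granule cell markers were detected, with summed levels of 3713 and 3749 CPM and Prox1 the highest at 1100 and 1193 CPM. Of 9 markers of GABA neurons 4 were detected, with sums of 79.0 and 124 CPM, led by Gad1 (62.8 ± 18.1 CPM, SD, n = 2), while Pvalb was at 0.0958 and 0.306 CPM. The higher sum in replicate 2 comes from Gad1 and Gad2, with log2 ratios of 0.69 and 1.21. The other 3 GABA neuron markers averaging 1 CPM or more, Lhx6 (-1.38), Erbb4 (-0.73) and Sst (-0.44), lay below 0, and the median of the 5 was -0.44. Of 7 thalamic markers 5 were detected (sums of 18.3 and 23.5 CPM), with Gbx2 at 0. Of 7 mossy cell markers 4 were detected (163 and 114 CPM), led by Ociad2 (103 and 77.9), with Calb2 at 3.55 and 1.44 CPM and Drd2 at 0.256 and 0.336 CPM.

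CA1 and CA3 markers summed to 136 and 90.2 CPM (6 of 6 detected) and 275 and 262 CPM (6 of 7). Here too the share of all symbols detected is 38.1%. Oligodendrocyte markers summed to 192 and 146 CPM (7 of 7), astrocyte markers to 450 and 499 CPM (6 of 7) and endothelial markers to 23.4 and 19.4 CPM (4 of 6). A single gene made up most of several sums, so these are not levels of a whole marker set. These genes were Slc1a2 (389 and 413 CPM) for astrocytes, Cpne4 (203 and 206) for CA3 and Mbp (126 and 99.3) for oligodendrocytes. No microglial marker of 6 was detected, C1qa and C1qb were at 0, and the sums were 2.24 and 2.14 CPM. Per kilobase of exon, Hcn2 (1.21 and 0.909) was above each microglial marker. Hcn3 (0.308 and 0.206) and Hcn4 (0.0574 and 0.0849) were in or near their range, with Csf1r at 0.183 and 0.106 and P2ry12 at 0.138 and 0.360 CPM per kilobase. The part that RNA of other cells has in the counts of the HCN genes was not tested.

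In CPM, the sums for oligodendrocyte, mossy cell, CA1 and endothelial markers were lower in replicate 2, as Pex5l was. Those for thalamic and astrocyte markers were higher. The GABA neuron sum was higher too, with 3 of the 5 markers compared lying below 0. The granule cell, CA3 and microglial sums differed by less than the shift between scalings. The median log2 ratio of all genes compared was -0.10 on library totals and -0.01 with TMM. No direction is read from these sums, and which sum differed least depends on the scaling. The part of these cells in the level of Pex5l was not tested.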

How the data were processed

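The deposited values are raw counts per gene symbol in 2 libraries of 1 group. The submitters' processing notes name the aligner STAR (2.0.0e), the counter HTSeq and mm10. Which annotation and strand setting they used is not given in the sources used here, so a gene's reads cannot be separated from those of an antisense gene. Lines that name no gene were left out of the totals, and 65.0% and 64.9% of all lines' counts remained on genes. Reads overlapping several genes, which HTSeq does not assign, were 2.61% and 2.56%.

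Computed here were CPM, CPM per kilobase and exact Poisson and Clopper-Pearson intervals at 95%, which cover counting error only. Exon unions came from GENCODE M21, matched by symbol for 23155 of 32531 symbols. Log2 ratios used TMM factors from edgeR 4.0.16, with DESeq2 1.42.0 size factors as an alternative. The ratio and its interval were checked on simulated Poisson counts with plain library totals. Neither TMM scaling nor spread beyond counting error was checked in this way. Distinct 50-base words were sought in all GENCODE transcripts on both strands, and overlapping genes were taken from GENCODE too. Whether any of the 9376 counted symbols without a match in GENCODE overlaps a member was not checked. The libraries' counts differed by a chi-square of 67.8 per degree of freedom and were kept as separate samples. No test between conditions was possible.

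The members and lists were chosen with earlier results of these data known. Named genes are the members, the up to 4 highest of each list per kilobase, genes at 0, selected partners, up to 3 markers per cell type, and the 3 nearest channel genes. Vapb, Rab8a, Pvalb, Drd2, Lhx6, Erbb4, Man1a, the other genes past 1.5-fold in a list and the overlapping genes were named after their values were seen. Some genes and 1 sequence are not reported here and were left out of the lists.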

Additional observations from a re-analysis of the deposited data

How the results depend on the processing

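No paired analysis was possible because there is only 1 group. The order Pex5l, Hcn2, Hcn3, Hcn4 was the same with the exon union and with the longest transcript. With the longest transcript Pex5l was at 25.1 CPM per kilobase and at 17.9 times the summed HCN genes, or 21.5 times with no length correction, since that transcript holds 4206 of the 8846 exonic bases. With no length correction the share of Hcn2 was 69.1%. Library totals alone gave Pex5l a log2 ratio of -0.45 and shifted the median of all genes to -0.10. A prior count of 0.5 put Hcn4 at 0.63, past 1.5-fold, on 11 and 17 counts. A minimum of 10 counts in both libraries gave 4 detected members in place of 2.

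Leaving out a replicate gave levels from 2.90 to 3.86 CPM for Hcn2, 0.856 to 1.28 for Hcn3, 0.351 to 0.520 for Hcn4 and 89.1 to 122 for Pex5l. Of the alternatives for the members, 50 values moved by less than their allowance and 6 by more. For levels the allowance was the SD of the 2 libraries. Leaving out 1 of 2 libraries cannot move a mean by more than that, so those values could only fall among the 50. The alternatives for the lists, and a length without shared exon bases (Hcn3 at 0.310 and Pex5l at 12.4 CPM per kilobase), were added after the data were seen. Depth limits Hcn3 and Hcn4 most.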

Other observations

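Of the listed genes counted 10 times or more in each library, 3 differed by more than 4-fold between the libraries, and they were chosen after their values were seen. Adcy7, an adenylyl cyclase gene, was counted 231 times in the first library and 12 times in the second, that is 7.38 and 0.367 CPM, with a log2 ratio of -4.03 (-5.21 to -3.41). Kcnh2, the gene of the ERG1 potassium channel, had 147 and 29 counts, or 4.70 and 0.887 CPM, with a log2 ratio of -2.24 (-2.94 to -1.73). Man1a, a gene of the CA1 marker list, had 344 and 72 counts (6.59 ± 6.21 CPM, SD, n = 2), with a log2 ratio of -2.20 (-2.61 to -1.86). None of the 3 has a level above 1 CPM per kilobase in both libraries.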
